A study of Mus musculus with 6 samples.

Results

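Myh9, Myh10 and Myh11, which encode the heavy chains of nonmuscle myosin IIA, nonmuscle myosin IIB and smooth muscle myosin, were followed in mouse heart cells together with Actn1 and Actn4, which encode the nonmuscle alpha-actinins. They were taken by name: 13 probe sets annotated to one of these genes alone, and for each gene the one of these with the brightest average on the 6 arrays. They are 5 of the 18193 genes measured in this way. Transcript levels came from one-colour Affymetrix arrays of total RNA, with 2 arrays in each of 3 groups, all from C57BL/6J mice. Neonatal cardiomyocytes and neonatal cardiac fibroblasts came from hearts at day 1 after birth, from animals of both sexes, and were parted on Percoll, a density medium. Adult cardiomyocytes came from males aged 8 weeks and were released by Langendorff perfusion, in which enzyme solution is passed through the vessels of the isolated heart. No group carried a transgene or received a drug per the labels, and there was no adult fibroblast group. The adult and neonatal groups therefore differ in age, sex and isolation together, and these cannot be told apart. The labels mention both fresh use of the cells and spreading of cells on a culture dish, so it is not settled whether the fibroblasts had been plated. Nothing in the labels says that both arrays of a group stem from separate preparations. Each p therefore reflects array-to-array spread only, and that spread may be technical.

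Class II myosins are made of a pair of heavy chains with essential and regulatory light chains. Nonmuscle myosins IIA and IIB pull on actin filaments in stress fibres, at the cell cortex and in the contractile ring of dividing cells, and their activity is switched on by phosphorylation of the regulatory light chain. Alpha-actinins crosslink actin filaments: Actn1 and Actn4 proteins do so at focal adhesions, along stress fibres and at cell edges, and the muscle form Actn2 does so at the Z-disc of the sarcomere. Smooth muscle myosin drives contraction of vessel walls, and Myh11 is widely used as a marker of smooth muscle cells.

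The promoters of the nonmuscle genes are shown because these genes share a direction in the adult comparisons. The RefSeq promoter table (build GRCm38.p6) held 4 of the 5 genes; Myh11 had no entry. Each line gives the 250 bases before the annotated transcription start, 5′ to 3′ on the gene's own strand. Capitals mark matches on either strand to the M-CAT element CATTCC (bound by TEAD factors), the GC box GGGCGG (bound by Sp factors) and the TATA box TATAAA. Adjoining or overlapping matches run together in the capitals.
Myh9, chr15:77842176-77842425, minus strand: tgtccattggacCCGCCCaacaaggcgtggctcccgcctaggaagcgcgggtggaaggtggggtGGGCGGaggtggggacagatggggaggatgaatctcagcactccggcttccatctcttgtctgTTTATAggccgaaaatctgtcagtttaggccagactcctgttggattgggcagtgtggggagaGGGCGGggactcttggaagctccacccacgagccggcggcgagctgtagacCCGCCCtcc
Myh10, chr11:68691665-68691914, plus strand: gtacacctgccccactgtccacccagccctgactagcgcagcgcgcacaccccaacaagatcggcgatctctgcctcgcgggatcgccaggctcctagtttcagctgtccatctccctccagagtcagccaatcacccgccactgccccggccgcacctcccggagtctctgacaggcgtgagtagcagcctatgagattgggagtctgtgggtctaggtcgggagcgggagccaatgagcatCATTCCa
Actn1, chr12:80260364-80260613, minus strand: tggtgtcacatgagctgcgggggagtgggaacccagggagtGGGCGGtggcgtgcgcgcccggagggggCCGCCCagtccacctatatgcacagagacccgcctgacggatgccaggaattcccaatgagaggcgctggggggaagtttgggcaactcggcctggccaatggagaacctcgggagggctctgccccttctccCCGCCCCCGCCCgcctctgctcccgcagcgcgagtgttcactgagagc
Actn4, chr7:28962333-28962582, minus strand: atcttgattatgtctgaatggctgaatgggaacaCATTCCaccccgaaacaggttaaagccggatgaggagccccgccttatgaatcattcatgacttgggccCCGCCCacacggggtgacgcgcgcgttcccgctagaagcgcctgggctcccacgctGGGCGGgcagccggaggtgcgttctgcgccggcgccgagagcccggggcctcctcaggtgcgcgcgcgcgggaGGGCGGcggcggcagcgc
The Myh9 window held 4 GC boxes and 1 TATA match, the Actn1 window 4 GC boxes, and the Actn4 window 3 GC boxes and 1 M-CAT. The Myh10 window held 1 M-CAT next to the start and no GC box. Among all 32851 windows of this length in the table, 32.7% held a GC box, 12.6% an M-CAT and 12.4% the TATA letters. The CArG box, the element bound by serum response factor, was also searched, with 6 A or T between its CC and GG. It was in 1.47% of all windows and in none of these 4. A match describes letters in the window and is not evidence of binding, and its absence says nothing about the factor. Base composition was alike, with 62.4% G or C for Myh9, 62.8% for Myh10, 68.4% for Actn1 and 67.6% for Actn4.

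Expression is given as log2 RMA values, on which 1 unit is a doubling. RMA corrects background, aligns the distributions of the arrays and combines the probes of a probe set. Means are given ± SD over n = 2 arrays. SE is the standard error limma gives a difference, and adjusted p-values are Benjamini-Hochberg values over all 18193 genes, called below 0.05. An exact permutation test of 2 against 2 arrays cannot go below 0.333 (two-sided), so the tests rest on limma's estimate of spread shared among genes. For the neonatal replicate 1 arrays, both titles give the opposite cell type to the remaining labels. Groups here follow the source name and cell type fields. The cardiomyocyte markers had medians of 13.76 to 14.14 on the cardiomyocyte arrays, against 7.74 and 11.21 on fibroblast replicates 1 and 2. The fibroblast markers had medians of 12.58 and 11.86 in fibroblasts, against 7.77 to 10.28 elsewhere, so the markers on each array went with the fields used. Fibroblast replicate 2 stood apart by its cardiomyocyte markers. It correlated at 0.958 with neonatal cardiomyocyte replicate 2, against 0.963 with the other fibroblast array. The neonatal cardiomyocyte arrays correlated at 0.957 with each other, so replicate 2 of that group was about as like fibroblast replicate 2. In RNA from whole preparations, fewer cells of a type and less RNA per cell cannot be told apart.

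The largest differences lay between adult cardiomyocytes and neonatal fibroblasts. Myh9, Myh10, Actn1 and Actn4 were 3.98-fold to 12.3-fold lower in the adult cells, and Myh11 was 7.63-fold higher. All 5 genes passed the limma threshold in that comparison, where 21.0% of all genes did. Lower and past it were 4 members against 11.0% of all genes, and higher 1 member against 10.1%. Between adult and neonatal cardiomyocytes the 4 nonmuscle genes again had lower adult means and Myh11 a higher one. There 1 of the 5, Myh10, passed, against 2.30% of all genes in either direction and 1.22% in the direction of Myh10, while 4 of the 5 had an unadjusted p under 0.05, against 22.8% of all genes. Between the neonatal cell types 0 of 5 passed the limma threshold, against 0.819% of all genes, and 1 gene, Myh9, had an unadjusted p under 0.05, as did 16.3% of all genes. The adult arrays are shared by both adult comparisons, so these are not independent of each other. Some markers of other cells moved with the 4 nonmuscle genes, and others moved the opposite way. Between adult and neonatal cardiomyocytes 8 of 10 fibroblast markers (median difference −1.19) and 6 of 6 epicardial markers (−2.03) had lower adult means. The summed linear level of the fibroblast markers was 4090 and 15900 in adult against 19600 and 17600 in neonatal cardiomyocytes. In the same comparison 9 of 10 leukocyte markers (0.92) and 8 of 13 smooth muscle and pericyte markers (0.27) had higher adult means. Endothelial markers had higher adult means in 7 of 9 cases in both adult comparisons (0.19, and 2.25 against fibroblasts). Against fibroblasts 10 of 10 leukocyte markers had lower adult means (−3.09), and fibroblast replicate 1 stood apart with a summed leukocyte level of 50800, against 8620 on replicate 2. The part of these cells in the differences was not tested.

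With 2 arrays a group, the calls depended on each array. A fit without 1 array leaves its group with a lone array, assumed to vary like the other groups, so a lost call there need not mean a smaller difference. Against fibroblasts the differences over these fits ran from −3.00 to −2.23 for Myh9, −3.01 to −2.48 for Myh10, 2.12 to 3.74 for Myh11, −4.08 to −3.16 for Actn1 and −2.37 to −1.61 for Actn4. Without adult replicate 1, 0 of the 5 genes and 0 of all 18193 passed limma's threshold in adult cardiomyocytes against fibroblasts, although all 5 genes still had an unadjusted p under 0.05, as in the fit of all arrays, where 37.0% of all genes did. Without adult replicate 2, fibroblast replicate 1 or fibroblast replicate 2, only Myh10 kept its call, and fewer of all genes passed too. Without either neonatal cardiomyocyte array all 5 passed. The Myh10 call between adult and neonatal cardiomyocytes was lost without any 1 of the 6 arrays, at differences between −2.62 and −2.09. Fewer of all genes passed in each of these fits too. The differences of the 5 genes kept their sign in both adult comparisons in each of these fits. As no groups overlapped there, leaving out 1 array could not turn a sign. With the neonatal replicate 1 arrays grouped by their titles, Myh10 alone passed against fibroblasts (adjusted p = 0.0492, limma), where 137 of all genes did. No member passed in the other comparisons, where 114 (adult against neonatal cardiomyocytes) and 0 (neonatal cell types) of all genes did. In the same order 5 and 0 members had an unadjusted p under 0.05 in limma. The share over all genes was not counted for that grouping.

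**Figure D1:**
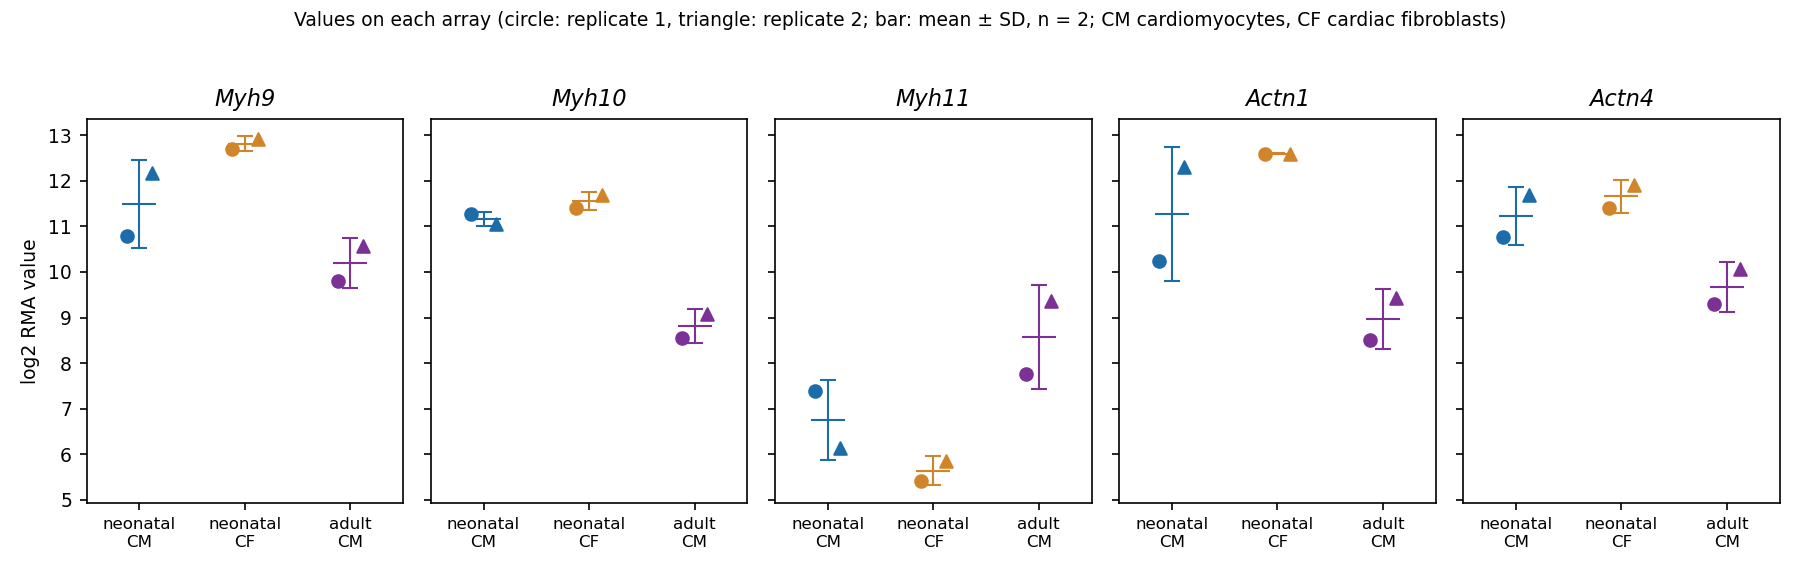
Log2 RMA value (vertical axis) of Myh9, Myh10, Myh11, Actn1 and Actn4, one panel per gene, in the 3 groups (horizontal axis); circles are replicate 1, triangles replicate 2, and bars the mean ± SD of n = 2 arrays. Myh9, Myh10, Actn1 and Actn4 were lowest on adult replicate 1 and highest on fibroblast replicate 2, while Myh11 was highest on adult replicate 2, at 9.37.

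Myh9, the nonmuscle heavy chain of most migrating and adherent cells, followed the order fibroblasts, neonatal cardiomyocytes, adult cardiomyocytes. Its values were 12.71 and 12.93 on the fibroblast arrays, 10.80 and 12.17 on the neonatal cardiomyocyte arrays, with 9.81 and 10.58 for the adult cells. No group overlapped another, but the neonatal cardiomyocyte arrays differed from each other by 1.37, with replicate 1 lying within 0.22 of the higher adult array. The means were 12.82 ± 0.16, 11.49 ± 0.97 and 10.20 ± 0.54. Myh9 was lower in adult cardiomyocytes than in fibroblasts by 2.62 ± 0.52 (SE; 6.14-fold; adjusted p = 0.0269, limma). Neither neighbour in the order differed beyond the threshold. The limma difference was −1.33 between neonatal cardiomyocytes and fibroblasts (95% interval −2.65 to −0.02; adjusted p = 0.3) and −1.29 between adult and neonatal cardiomyocytes (−2.60 to 0.03; adjusted p = 0.225).

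Myh10, the heavy chain of nonmuscle myosin IIB, which is known for its part in heart development and in cytokinesis of fetal cardiomyocytes, was the one member past the threshold against both neonatal groups. Its values were 11.28 and 11.05 in neonatal cardiomyocytes, 11.41 and 11.70 in fibroblasts, and 8.55 and 9.08 in adult cardiomyocytes. All 4 neonatal arrays lay between 11.05 and 11.70, and both adult arrays lay far below them. Group means were 11.16 ± 0.16, 11.56 ± 0.20 and 8.81 ± 0.37. Myh10 was lower in adult than in neonatal cardiomyocytes by 2.35 ± 0.25 (SE; 5.11-fold; adjusted p = 0.0276, limma), a call lost without any single array as given above. Against fibroblasts the adult level was lower by 2.74 ± 0.25 (SE; 6.70-fold; adjusted p = 0.00731). That call was lost without adult replicate 1 (adjusted p = 0.0646). Neonatal cardiomyocytes and fibroblasts differed by −0.39 (95% interval −1.03 to 0.25; adjusted p = 0.549).

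Myh14 encodes the heavy chain of nonmuscle myosin IIC, the remaining nonmuscle paralog, and went the opposite way. Its values were 6.26 and 6.47 in neonatal cardiomyocytes, 5.59 and 5.96 in fibroblasts, and 9.25 and 9.56 in adult cardiomyocytes. The adult arrays lay clear of the others. Myh14 rose by 3.04 ± 0.22 (SE; 8.25-fold; adjusted p = 0.0181) from neonatal to adult cardiomyocytes and stood 12.4-fold higher in adult cardiomyocytes than in fibroblasts (difference 3.63; adjusted p = 0.00411). The first call was lost without either adult array (0.18 and 0.127) or without neonatal cardiomyocyte replicate 2 (0.0554), and the second without adult replicate 1 (0.0613). So, of the nonmuscle heavy chains, Myh10 was lower and Myh14 higher in the adult cells in both adult comparisons, each past the threshold.

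Myh11, the smooth muscle heavy chain, had uneven values within groups. It lay at 7.38 and 6.14 in neonatal cardiomyocytes, 5.41 and 5.86 in fibroblasts, and 7.76 and 9.37 in adult cardiomyocytes. The adult arrays were the highest of the 6 and the fibroblast arrays the lowest, but the adult arrays differed by 1.61 and the neonatal cardiomyocyte arrays by −1.24 (replicate 2 minus replicate 1), while neonatal cardiomyocyte replicate 1 came within 0.38 of adult replicate 1. Means were 6.76 ± 0.88, 5.64 ± 0.31 and 8.57 ± 1.14. Myh11 was higher in adult cardiomyocytes than in fibroblasts by 2.93 ± 0.67 (SE; 7.63-fold; adjusted p = 0.0375, limma). This call was lost when the mean of both Myh11 probe sets was used (adjusted p = 0.0533), and without either fibroblast array (0.144 and 0.101) or either adult array (0.0799 and 0.121). The limma difference was 1.81 between adult and neonatal cardiomyocytes (95% interval 0.12 to 3.50; adjusted p = 0.2) and 1.12 between neonatal cardiomyocytes and fibroblasts (−0.57 to 2.82; adjusted p = 0.505). By replicate number the adult minus neonatal cardiomyocyte difference was 0.38 for replicate 1 and 3.24 for replicate 2.

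Markers of smooth muscle cells and pericytes, the mural cells of vessels, moved partly with Myh11. Of 13 such markers, 11 were higher on adult replicate 2 than on adult replicate 1, as was Myh11. So were Myh9, Myh10, Actn1 and Actn4, by 0.53 to 0.92, and the share over all genes was not counted. Against fibroblasts 3 of 13 markers were higher and 2 lower in adult cardiomyocytes past the threshold, where 10.1% and 11.0% of all genes were. By means 5 of these markers were higher and 8 lower, with a median difference of −0.27. Their median log2 level was 9.42 and 9.39 in neonatal cardiomyocytes, 7.45 and 8.17 in fibroblasts, and 8.54 and 9.98 in adult cardiomyocytes. Their summed linear level was 15600 to 23000 in adult cardiomyocytes, 20900 to 26600 in neonatal cardiomyocytes and 27900 to 40200 in fibroblasts. The sum is carried by its brightest genes, which on the fibroblast arrays were Acta2 and Tagln (Tagln at 12.99 and 13.67). It therefore does not measure the amount of smooth muscle or pericyte RNA, and its order differed from that of Myh11. The members did not move as a block. The pericyte marker Rgs5 followed the Myh11 order in part, at 10.88 and 6.35 in neonatal cardiomyocytes, 3.32 and 6.95 in fibroblasts, and 11.78 and 12.86 in adult cardiomyocytes. The potassium channel subunit Kcnj8, also a pericyte marker, was 3.97 higher in adult cardiomyocytes than in fibroblasts (adjusted p = 0.0454, limma). Smooth muscle actin, Acta2, went the other way and was lower by 2.39 (adjusted p = 0.0149), with values of 13.74 and 14.31 in fibroblasts against 11.25 and 12.01 in adult cardiomyocytes. Endothelial markers had medians of 8.35 and 9.52 in adult cardiomyocytes against 6.26 and 7.48 in fibroblasts, and 7 of 9 were higher on adult replicate 2 than on adult replicate 1. So were 9 of 10 fibroblast, 10 of 10 leukocyte and 5 of 6 epicardial markers. The part of other cell types in the Myh11 difference was not tested.

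**Figure D2:**
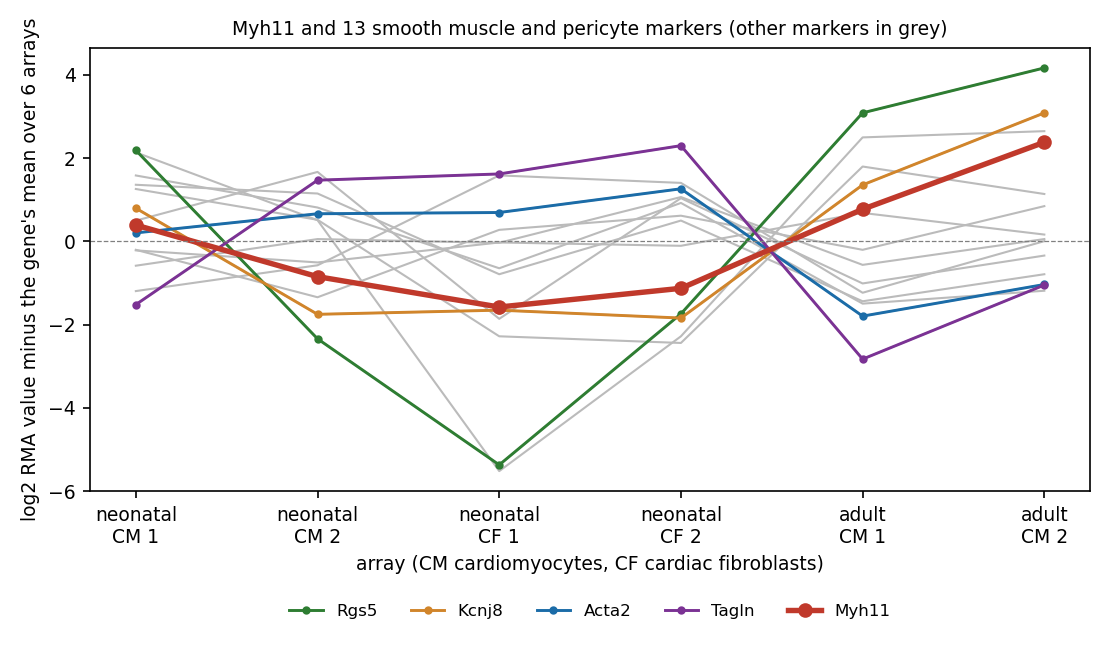
Log2 RMA value minus the gene's mean over the 6 arrays (vertical axis) for Myh11 and 13 smooth muscle and pericyte markers on each array (horizontal axis); lines join the values of 1 gene and mark no order in time. Myh11, Rgs5 and Kcnj8 were highest on adult replicate 2, whereas Acta2 was lowest on the adult arrays.

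Actn1, the nonmuscle alpha-actinin of stress fibres and focal adhesions, had the widest difference among the 5 genes. Its values were 12.59 and 12.60 on the fibroblast arrays, 10.24 and 12.31 on the neonatal cardiomyocyte arrays, with 8.51 and 9.43 for the adult cells. The fibroblast arrays were nearly identical, and the neonatal cardiomyocyte arrays were 2.07 apart, with replicate 2 close to the fibroblast level and replicate 1 closer to the adult level. Group means were 12.59 ± 0.00, 11.28 ± 1.46 and 8.97 ± 0.65. Actn1 was lower in adult cardiomyocytes than in fibroblasts by 3.62 ± 0.72 (SE; 12.3-fold; adjusted p = 0.0274, limma). The call was lost without either fibroblast array (0.105 and 0.0946) or either adult array (0.155 and 0.0899). The limma difference was −2.31 between adult and neonatal cardiomyocytes (95% interval −4.14 to −0.47; adjusted p = 0.155) and −1.32 between neonatal cardiomyocytes and fibroblasts (−3.15 to 0.51; adjusted p = 0.464). Taken by replicate number, neonatal cardiomyocytes minus fibroblasts gave −2.35 for replicate 1 and −0.29 for replicate 2.

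Actn4, the alpha-actinin of motile cell edges and the cortex, had the smallest difference of the 4 nonmuscle genes in the comparison of adult cells with fibroblasts. It lay at 11.41 and 11.92 in fibroblasts, 10.77 and 11.68 in neonatal cardiomyocytes, and 9.29 and 10.06 in adult cardiomyocytes. The neonatal groups overlapped, and both lay above the adult arrays. Means were 11.67 ± 0.37, 11.22 ± 0.64 and 9.67 ± 0.54. Actn4 was lower in adult cardiomyocytes than in fibroblasts by 1.99 ± 0.43 (SE; 3.98-fold; adjusted p = 0.0337, limma), a call lost without either fibroblast array (0.0876 and 0.124) or either adult array (0.166 and 0.0817). The limma difference was −1.55 between adult and neonatal cardiomyocytes (95% interval −2.65 to −0.45; adjusted p = 0.131) and −0.44 between neonatal cardiomyocytes and fibroblasts (−1.54 to 0.66; adjusted p = 0.728). With the replicate number as a block, Actn4 also passed between adult and neonatal cardiomyocytes (−1.55; adjusted p = 0.0397).

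Counted by overlap of arrays alone, 4 of the 5 genes separated the neonatal cell types, all but Actn4, where 45.4% of all genes did. All 5 separated adult from neonatal cardiomyocytes, where 57.7% of all genes did, and all 5 separated adult cardiomyocytes from fibroblasts, where 68.0% did. Complete separation of 2 against 2 arrays was thus common over the whole array set.

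**Figure D3:**
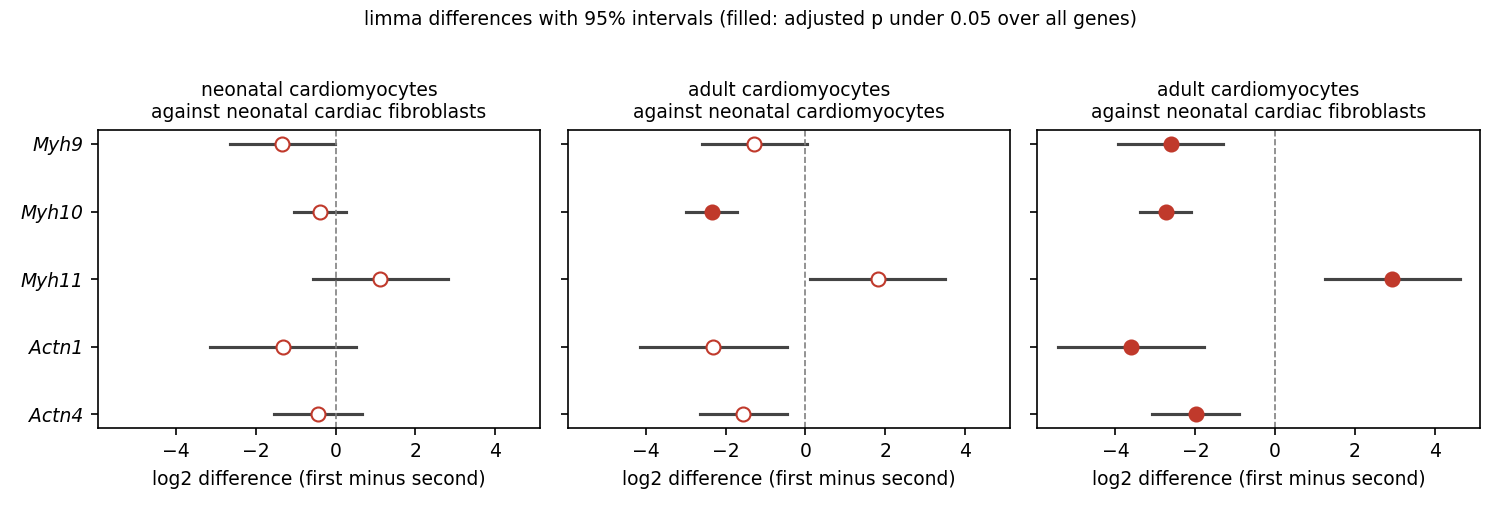
Log2 difference, first group minus second, with its 95% limma interval (horizontal axis) for the 5 genes (vertical axis), one panel per comparison; filled points have adjusted p under 0.05. All 5 points are filled for adult cardiomyocytes against fibroblasts, Myh10 alone for adult against neonatal cardiomyocytes, and none between the neonatal cell types.

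The remaining probe sets of the 5 genes mostly gave the same signs. Of 13 probe sets, all 13 had the sign of the chosen probe set in both adult comparisons, and 11 of 13 had it between the neonatal cell types. In a limma fit over all 34945 probe sets, 7 of the 13 passed between adult cardiomyocytes and fibroblasts, 1 between adult and neonatal cardiomyocytes, and 0 between the neonatal cell types. For Actn1, the probe sets differed in the shape of their values within the fibroblasts. The chosen one was level on the fibroblast arrays, while 1452415_at gave 10.53 and 8.01 there, with 7.22 and 7.35 in neonatal cardiomyocytes and 6.49 and 6.89 in adult cardiomyocytes. The third, 1427385_s_at, gave 10.30 and 8.48 in fibroblasts, 7.84 and 7.57 in neonatal cardiomyocytes, and 6.43 and 5.40 in adult cardiomyocytes. On these probe sets both neonatal cardiomyocyte arrays lay below both fibroblast arrays, and neonatal cardiomyocyte replicate 2 was not near the fibroblast level. For Myh9, the probe sets 1417472_at and 1420170_at also put neonatal cardiomyocyte replicate 2 about 2 units above replicate 1, whereas 1420172_at gave 9.93 and 9.76 on these arrays. The second Myh10 probe set, 1441057_at, was dim, at 4.89 to 5.99, and the sign between the neonatal cell types was reversed on it (0.50), while adult minus neonatal cardiomyocytes gave −0.88. The second Myh11 probe set, 1418122_at, was dimmer still, ranging from 3.84 to 4.24 over the neonatal arrays, with adult values of 4.20 and 4.87. Its difference between the neonatal cell types was −0.01, the other reversed sign. Beside the 5 chosen probe sets, 1420172_at of Myh9 and 1427385_s_at of Actn1 were the 2 further ones past the threshold in adult cardiomyocytes against fibroblasts. Actn4 had 1 probe set.

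**Figure D4:**
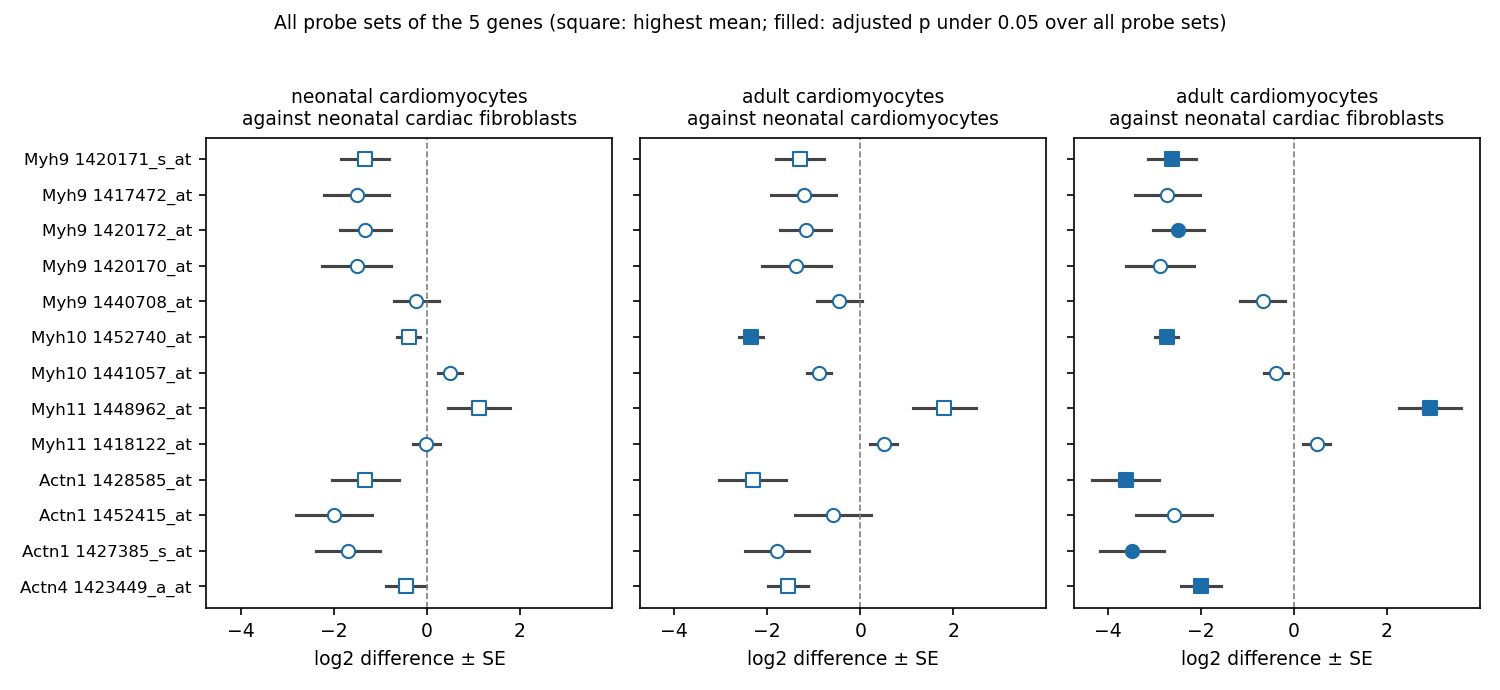
Log2 difference ± SE from limma (horizontal axis) for the 13 probe sets of the 5 genes (vertical axis), one panel per comparison; squares are the chosen probe sets, and filled symbols have adjusted p under 0.05 over all probe sets. In adult cardiomyocytes against fibroblasts 7 symbols are filled, and all 13 lie on the side of their gene's chosen probe set.

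Differences between genes within an array show unequal change, although their size on any array depends on the probes and has no meaning as a ratio of transcripts. Myh10 minus Myh9 was −1.12 to −1.51 on 5 arrays and 0.48 on neonatal cardiomyocyte replicate 1. Myh10 and Myh9 thus kept a like distance except on that array, where Myh9 was low for its group. Myh11 minus Myh9 was −7.29 and −7.07 in fibroblasts, −3.42 and −6.03 in neonatal cardiomyocytes, and −2.05 and −1.21 in adult cardiomyocytes. This was the widest shift among the pairs of nonmuscle and smooth muscle genes examined, and neonatal cardiomyocytes spanned much of the range. Actn1 minus Actn4 was 1.19 and 0.67 in fibroblasts, −0.53 and 0.63 in neonatal cardiomyocytes, and −0.78 and −0.63 in adult cardiomyocytes. Relative to Actn4, Actn1 was thus lower on the adult arrays than on the fibroblast arrays.

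The sarcomeric alpha-actinin Actn2 gives the contrast for Actn1. Actn2 lay at 13.33 and 12.43 in neonatal cardiomyocytes, 6.72 and 9.03 in fibroblasts, and 13.26 and 12.84 in adult cardiomyocytes. It was 36.1-fold higher in adult cardiomyocytes than in fibroblasts (difference 5.17; adjusted p = 0.0155, limma). The fold of neonatal cardiomyocytes over fibroblasts was 32.1 (adjusted p = 0.0668). Between adult and neonatal cardiomyocytes it differed by 0.17 (adjusted p = 0.911). Actn1 minus Actn2 moved from 5.87 and 3.57 in fibroblasts to −3.09 and −0.12 on the neonatal cardiomyocyte arrays, and to −4.75 and −3.41 on those of the adult cells. The cardiac heavy chain Myh6 read 14.44 and 14.33 in neonatal cardiomyocytes, 9.47 and 12.31 in fibroblasts, and 14.48 and 14.49 on the adult arrays, which is close to the highest value any array holds. Near the top of the range a difference may be compressed, which was not tested. Myh6 was an estimated 3.59 higher in adult cardiomyocytes than in fibroblasts (adjusted p = 0.0473, limma), with the fibroblast arrays far apart. That call was lost without either adult array or either neonatal cardiomyocyte array. The Actn2 call was lost without either adult array (0.11 and 0.0801). Of the 5 sarcomeric genes listed, these 2 were the ones that passed (3 higher and 1 lower with the replicate block), and 0 passed in the other comparisons in limma, with 3 (neonatal cell types) and 0 (adult against neonatal cardiomyocytes) at an unadjusted p under 0.05. Myh7, the slow cardiac heavy chain, read 14.41 and 9.70 in neonatal cardiomyocytes, 4.51 and 6.27 in fibroblasts, and 9.11 and 8.76 in adult cardiomyocytes. Its difference of −3.12 between adult and neonatal cardiomyocytes (adjusted p = 0.303) rested on neonatal cardiomyocyte replicate 1 and was −0.77 without it. Between the neonatal cell types the difference was 6.67 (adjusted p = 0.129), and 4.31 without that array.

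The light chains that pair with these heavy chains did not pass the threshold in the fit without a replicate block. Of 6 genes in the list of light chains and Myh14, 1 rose and 0 fell between neonatal and adult cardiomyocytes, and that gene was Myh14. The same count held against fibroblasts, where the replicate block gave 1 higher and 2 lower, and 0 of 6 passed between the neonatal cell types, where 1 had an unadjusted p under 0.05 in limma. The regulatory light chain Myl9 read 12.98 and 12.58 in neonatal cardiomyocytes, 11.20 and 12.75 in fibroblasts, and 8.40 and 10.33 in adult cardiomyocytes, with adjusted p = 0.0973 and 0.0769 in the adult comparisons. Myl12b, another regulatory light chain, was 1.04 lower in neonatal cardiomyocytes than in fibroblasts (adjusted p = 0.419). The list's median differences were 0.16, −0.10 and −0.17 for neonatal cardiomyocytes against fibroblasts, adult against neonatal cardiomyocytes, and adult cardiomyocytes against fibroblasts. Over all genes the medians were −0.02, 0.09 and 0.09 in the same order.

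The partners of Actn1 and Actn4 in actin bundles and focal adhesions were lower in adult cardiomyocytes than in fibroblasts in more cases. Of 23 measured genes, 10 were lower and 1 was higher past the threshold, with a median of −1.50 against 0.09 over all genes. Of all genes 11.0% were lower and 10.1% higher past the threshold in this comparison. With the replicate block the counts were 17 lower and 2 higher. Cald1, which binds actin and tropomyosin, was 3.44 lower (adjusted p = 0.037). The actin crosslinker Flna was 3.22 lower (adjusted p = 0.0078), the nonmuscle tropomyosin Tpm4 2.71 lower (adjusted p = 0.0288) and the focal adhesion protein Lpp 2.52 lower (adjusted p = 0.00899). The higher gene was Palld, an actin-associated protein, by 0.81; it is named because it stood alone. Lpp was also the single gene of the list that fell between neonatal and adult cardiomyocytes, by 1.87 (adjusted p = 0.048, limma). That call was lost without any 1 of the 6 arrays, where fewer of all genes passed too. It was also lost with the replicate block (0.0514), under which 2 other genes of the list passed as lower. The count of 10 against fibroblasts dropped without either fibroblast or either adult array, again with fewer of all genes past the threshold. The list's median there was −1.27 without fibroblast replicate 1, −1.5 without fibroblast replicate 2 and −1.27 without adult replicate 1. Between the neonatal cell types 0 of 23 passed in limma, with 6 at an unadjusted p under 0.05. Pdlim5 had the widest difference there (3.44; adjusted p = 0.173), which was 1.99 without fibroblast replicate 1. Synpo followed (−2.78; adjusted p = 0.327), at −1.03 without neonatal cardiomyocyte replicate 1 and −4.53 without replicate 2.

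Genes that work with nonmuscle myosin in the contractile ring had the lowest medians of the 5 lists given here in both adult comparisons. Of 8 measured, 4 fell between neonatal and adult cardiomyocytes (median −3.36, against 0.09 over all genes), where 1.22% of all genes were lower past the threshold. They were Anln, a ring scaffold, by 5.41 (adjusted p = 0.0304), Ect2, a guanine nucleotide exchange factor, by 5.07 (adjusted p = 0.0232), Racgap1, of the centralspindlin complex, by 3.96 (adjusted p = 0.0444), and Prc1, a bundler of spindle microtubules, by 3.64 (adjusted p = 0.0424). With the replicate block 3 passed, and the calls of Racgap1 (0.0529) and Prc1 (0.0517) were lost. Against fibroblasts 7 of 8 were lower (median −3.36, against 0.09), where 11.0% of all genes were. With the replicate block 8 of 8 were lower past the threshold there. The count of 4 dropped to 1 without neonatal cardiomyocyte replicate 1, to 2 without either fibroblast array, and to 0 without neonatal cardiomyocyte replicate 2 or either adult array. The count of 7 dropped to 4 and 5 without fibroblast replicates 1 and 2, and to 0 without either adult array. Between the neonatal cell types 0 of 8 passed in limma, with 2 at an unadjusted p under 0.05, and the widest differences were −1.21 for Septin9 and −0.60 for Septin7, which form filaments at the ring. Myh10, which shared the low adult level, differed less than these 4 genes in both adult comparisons.

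Of 8 regulators in the SRF, MRTF and YAP list, which covers factors that act on cytoskeletal genes, 1 was lower in adult cardiomyocytes than in fibroblasts, a share near the 11.0% of all genes that were lower. It was Mrtfa, an actin-regulated partner of SRF, by 1.89 (adjusted p = 0.0308, lost without fibroblast replicate 1 at 0.103 or either adult array at 0.133 and 0.132). In the other comparisons 0 of 8 passed in limma, with 2 between the neonatal cell types and 1 between adult and neonatal cardiomyocytes at an unadjusted p under 0.05. Myocd, the cardiac and smooth muscle partner of SRF, was 4.07 higher in neonatal cardiomyocytes than in fibroblasts (adjusted p = 0.133; 2.56 without fibroblast replicate 1), a difference opposite in sign to that of Actn1 and Myh9. It was 1.36 lower in adult than in neonatal cardiomyocytes (adjusted p = 0.439), and Mrtfa 1.17 lower (adjusted p = 0.176).

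**Figure D5:**
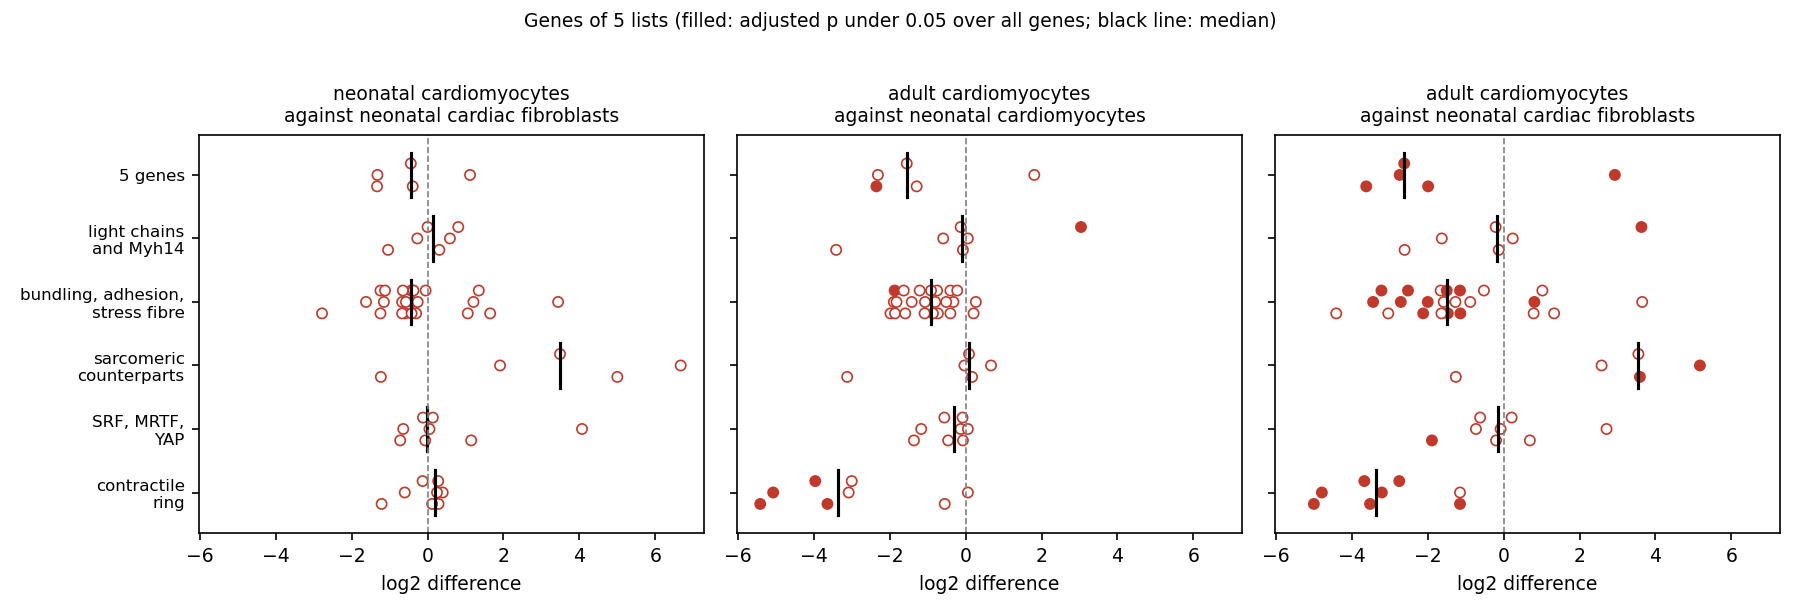
Log2 differences (horizontal axis) of the 5 genes and of the genes of 5 lists (vertical axis), one panel per comparison, with 1 point per gene, filled where adjusted p is under 0.05, and a black line at the median. The contractile ring genes have the lowest medians in both adult comparisons, at −3.36, and Myh14 is the filled point of the light chain list.

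The genes whose values over the 6 arrays were most like those of each member were ranked by Pearson correlation among 6833 genes with an SD of at least 0.5. With 6 arrays in 3 groups very many genes reach a high value, so the ranking is a description. Nearest to Myh9 were Unc5b and Rab3gap2 (0.999), then Sec61b, Kirrel and Cdc42se1 (0.998). Nearest to Myh10 were Rrm1 (0.999), then Vrk1, Mcm7, Spats2 and Pclaf (0.997). Rrm1, Mcm7 and Pclaf act in DNA replication or its nucleotide supply. Nearest to Myh11 were Gimap5 (0.997), Sema3g (0.995), Gem and Cytl1 (0.991) and H2-Aa (0.99). Sema3g is a semaphorin of endothelial cells and H2-Aa a class II antigen-presenting chain of leukocytes. Leukocyte markers had medians of 7.16 and 5.64 in neonatal cardiomyocytes, 11.91 and 9.39 in fibroblasts, and 6.69 and 8.01 in adult cardiomyocytes. Nearest to Actn1 were Lrrc14 and Actb (0.999), then Slc39a6, Comtd1 and Pawr (0.998), of which Actb encodes the nonmuscle actin that alpha-actinin crosslinks. Nearest to Actn4 were Minpp1 and Gtf3c4 (1.0), then Pcolce, Nup160 and Tgfb2 (0.998). Among the members themselves Myh9 and Actn1 were most alike (0.986), Myh10 and Actn4 reached 0.928, and Myh11 ran opposite to the other four (−0.785 to −0.861).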

How the data were processed

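The 6 arrays were deposited as log2 values per probe set, made by the authors with RMA per the submitters' processing notes (release not given in the sources used here, nor whether all arrays were run jointly). RMA compresses differences near the floor and the top of the range. GEO's platform annotation named 34945 of 45101 probe sets to 1 gene, and 18193 genes entered with their brightest probe set each. A 3-group model over all 6 arrays was fitted in limma 3.58.1 (R 4.3.3; lmFit and eBayes, 3 residual and 2.18 prior degrees of freedom), with two-sided tests adjusted by Benjamini-Hochberg over all genes at a threshold of 0.05. The script was tested on simulated data with genes changed by a known size. In each comparison 50 genes of each size were changed, and all other genes were left unchanged. In the data 21.0% of all genes passed between adult cardiomyocytes and fibroblasts, so the simulated shares need not carry over to that comparison. Over the 3 simulated comparisons 2% to 8% of genes changed by 1 unit passed the threshold, and 42% to 62% of those changed by 2 units. A difference of that size short of the threshold is therefore not evidence of no change. Rose, fell, and counts past the threshold refer to the 3-group model, except where another fit is named. The small number of arrays sets the precision.

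The 5 genes and the lists were chosen with earlier results of these data known. Named from each list were up to 4 genes per comparison with the widest difference among those past the threshold, or the 2 widest where none passed, as values; beside these, Actn2, Myh6, the 5 most alike genes of each member, and some genes chosen after their values were seen (Palld, Myl9, Rgs5, Kcnj8, Acta2). Alternatives were the replicate block, groups from titles, arrays left out, other scaling, a filter on dim genes, other probe set rules and other variance priors. Same-numbered arrays of different groups deviated together only weakly (correlations 0.183, 0.268 and 0.207 for the 3 pairs of groups). The labels do not say what a number marks. Values with the replicate number as a block are given where they change a call. Promoter letters came from RefSeq (GRCm38.p6). One further list, of myosin regulators, is not reported here.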

Additional observations from a re-analysis of the deposited data

How the results depend on the processing

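Each difference of the 5 genes was recomputed under 18 settings. In the adult comparisons no sign turned in any setting. Only median centring, renewed quantile normalization and the mean of all probe sets could have turned one. The other settings left the values as they were, and every adult array lay on the same side of all neonatal arrays. Between neonatal cardiomyocytes and fibroblasts, grouping by the titles turned Myh9 to 0.57, Myh11 to −0.84, Actn1 to 1.03 and Actn4 to 0.19. That grouping exchanges the neonatal replicate 1 arrays. It places an array with a cardiomyocyte marker median of 7.74 among the cardiomyocytes and another at 14.0 among the fibroblasts. The mean of all probe sets turned Myh10 to 0.05. Leaving out neonatal cardiomyocyte replicate 1 turned Actn4 to 0.01 (over all single arrays left out, −0.89 to 0.01). The cause of these turns was not tested beyond these constructions. The count of members past the threshold in that comparison stayed 0 in every setting that left no group with a lone array. With the replicate block, groups from the titles, only the arrays of the 2 groups, or all probe sets in the fit, this was fixed. There 0 of all genes or probe sets passed. With other scaling, other priors, the filter on dim genes and the mean of all probe sets, 59 to 330 of all genes passed.

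Between adult and neonatal cardiomyocytes the count of 1 became 0 with groups from the titles, where 114 of all genes passed, against 418 in the main fit. It also became 0 in a fit of only the arrays of the 2 groups, where 164 of all genes passed. The call was lost too with both neonatal replicate 1 arrays or both neonatal replicate 2 arrays left out, and without each single array. Leaving out both neonatal replicate 2 arrays was an alternative chosen after seeing the data. Against fibroblasts the count of 5 became 1 with groups from the titles, where 137 of all genes passed, against 3829 in the main fit. The mean of all probe sets gave 4, where 3504 of all genes passed. Calls were also lost with either neonatal pair left out and in some fits without a single array, which leave a lone array in a group. Where the counts fell, fewer of all genes passed too, so the fall is not a result about these 5 genes alone. Median centring, renewed quantile normalization, the filter on dim genes, all probe sets in the fit and both other priors kept the counts.

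The fit with the replicate block, which pairs same-numbered arrays, gave counts of 0, 2 and 5 in the order neonatal cell types, adult against neonatal cardiomyocytes and adult cardiomyocytes against fibroblasts. The added call was Actn4 (−1.55; adjusted p = 0.0397), and the block changed no other call of the 5 genes.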
